A study of Mus musculus with 23 samples.

Results

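Mitochondrial pyruvate entry genes are the 10 genes Mpc1, Mpc2, Pdha1, Pdhb, Dlat, Pdhx, Pdk1, Pdk2, Pdk4 and Pcx. They were taken by symbol from the tables of normalized counts, where each of the 10 has 1 row among 35455 genes in the BRAFV600E and BRAFV600E/PI3KαH1047R table and 1 row among 35454 genes in the BRAFV600E/PGC1αHet and BRAFV600E/PGC1αNull table. All 10 passed the filter on low values in both tables, a mean of at least 10 normalized counts. Between genotypes or weeks, none of them reached 0.05 in limma's p-value after Benjamini-Hochberg adjustment, and the largest differences rested on few libraries. The values below therefore describe levels, spread and the intervals that the data leave.

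Pyruvate made by glycolysis enters mitochondria through a carrier of the inner membrane built from MPC1 and MPC2. Inside, the pyruvate dehydrogenase complex turns it into acetyl-CoA for the citric acid cycle, while pyruvate carboxylase turns it into oxaloacetate. Pyruvate dehydrogenase kinases phosphorylate the E1 component and shut the complex off, and of these PDK1 is a known target of HIF-1 and PDK4 a known target of FOXO, PPAR and glucocorticoid receptors. AT2 pneumocytes, the surfactant-making cells of the alveolus, use acetyl-CoA and glycerol phosphate for surfactant lipids.

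RNA came from 23 libraries of tdTomato-positive lung cells sorted by flow cytometry from mice of a mixed genetic background, 3 to 4 months old. Every mouse carried the Braf CAT allele, which after CRE recombination makes BRAFV600E and the red marker tdTomato, and received Ad5-Sftpc-CRE, an adenovirus whose surfactant protein C promoter limits CRE to AT2 cells. The BRAFV600E group (CAT/+) has 1 library at 2 weeks post-initiation (p.i.), 3 at 6 weeks and 2 at 12 weeks, and the BRAFV600E/PI3KαH1047R group (CAT/+; HR/+), with a CRE-activated mutant Pik3ca, has 2, 4 and 2. The second table holds 5 libraries of BRAFV600E/PGC1αHet (CAT/+; PGC1a mutant/+) and 4 of BRAFV600E/PGC1αNull (PGC1a mutant/mutant), all at 12 weeks p.i., where CRE also removes 1 or both floxed copies of Ppargc1a, the gene of PGC1α. The 12 week mice received a lower virus titer than the 2 and 6 week mice, which shared the same titer. Week and titer therefore cannot be told apart in comparisons of 12 weeks with earlier weeks. The labels number the libraries within a group but do not tie them to animals, so p-values measure the spread between libraries, part of which may be technical.

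Some libraries stood apart. Summed over 10 AT2 markers, all 10 of them detected in every group, the level ran from 529590 to 1464770 normalized counts in BRAFV600E and from 77013 to 1045741 in BRAFV600E/PI3KαH1047R, where both 2 week libraries and replicate 1 at 6 weeks were lowest. Those 3 libraries were also highest in 10 endothelial markers, whose sum ran from 5992 to 44863 in BRAFV600E and from 13903 to 89480 in BRAFV600E/PI3KαH1047R. They were highest in 10 fibroblast markers as well, with sums of 35333 to 48273 against at most 18367 in the other 11 libraries. BRAFV600E/PI3KαH1047R replicate 1 at 12 weeks p.i. had a macrophage sum of 17857, against at most 7064 in the other 13. In the second table the endothelial sum was 352 to 927 in PGC1αHet and 1470 to 2155 in PGC1αNull, with no overlap, the macrophage sum was 805 to 2922 against 2423 to 5294, and the fibroblast sum 161 to 543 against 484 to 1674. Fits without the 3 libraries lowest in AT2 markers are given below for the first table, and the part of the markers in the values of the PGC1α table was not tested. The transcript model Gm10800 took 14.4% of the summed values of PGC1αNull replicate 1, 12.96% of replicate 4 and 10.3% of PGC1αHet replicate 1, against 2.95% to 6.35% in the other 6 libraries. Both BRAFV600E/PI3KαH1047R libraries of 12 weeks p.i. went against their labelled sex in the Y-linked gene Ddx3y (55.4 in the library labelled male, 1419.8 in the one labelled female) and were kept in their labelled group; an exchange with a library of another group was not tested. At 2 weeks p.i. sex and genotype cannot be told apart, with 1 female BRAFV600E library against 2 male ones. Labelled sex was uneven elsewhere too. Among the BRAFV600E libraries only replicate 3 at 6 weeks was labelled male, and both at 12 weeks were labelled female. BRAFV600E/PI3KαH1047R had both labels at 6 and at 12 weeks. The pooled and 12 week comparisons of genotypes are thus also unbalanced in sex. In sorted bulk RNA, a smaller share of a cell type and less RNA per cell cannot be told apart.

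Promoters of 4 members are shown because the genes mark the extremes of what follows: Mpc1 and Pdk1 had groups that did not overlap at 6 weeks p.i., Pdk4 varied most, and Pdhb was among the steadiest. Each sequence is 300 bases of RefSeq on GRCm38.p6, from 250 bases before to 50 after the start of transcription, read 5′ to 3′ on the gene's strand, and all 10 members had an entry. Capitals mark letters that match 1 of 6 motifs on either strand: AAGGTCA (an ERR half-site), GTAAACA (a FOXO site), ACGTG (the core of the hypoxia response element), GCATGCG (the core of the NRF1 site), GGGCGG (the GC box) and CCAAT (the NF-Y box).
Mpc1, chr17:8283537-8283836, plus strand: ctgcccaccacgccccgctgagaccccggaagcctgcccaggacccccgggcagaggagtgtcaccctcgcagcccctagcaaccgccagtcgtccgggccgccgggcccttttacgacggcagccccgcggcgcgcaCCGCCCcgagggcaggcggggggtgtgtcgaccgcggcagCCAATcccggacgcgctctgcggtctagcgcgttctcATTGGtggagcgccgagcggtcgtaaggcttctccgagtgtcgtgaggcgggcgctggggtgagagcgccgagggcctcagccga
Pdk1, chr2:71872974-71873273, plus strand: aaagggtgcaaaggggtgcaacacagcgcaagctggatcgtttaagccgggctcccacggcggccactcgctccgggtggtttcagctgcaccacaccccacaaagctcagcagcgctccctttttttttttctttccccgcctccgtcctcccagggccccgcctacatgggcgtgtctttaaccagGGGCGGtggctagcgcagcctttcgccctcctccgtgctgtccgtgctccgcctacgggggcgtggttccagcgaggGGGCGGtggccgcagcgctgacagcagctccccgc
Pdk4, chr6:5496229-5496528, minus strand: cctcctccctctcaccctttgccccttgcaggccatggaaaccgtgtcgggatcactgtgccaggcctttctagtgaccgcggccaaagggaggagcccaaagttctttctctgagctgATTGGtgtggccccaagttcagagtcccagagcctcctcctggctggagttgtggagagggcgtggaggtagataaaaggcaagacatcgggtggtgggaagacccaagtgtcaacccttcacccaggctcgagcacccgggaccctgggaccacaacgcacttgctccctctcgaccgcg
Pdhb, chr14:8172943-8173242, minus strand: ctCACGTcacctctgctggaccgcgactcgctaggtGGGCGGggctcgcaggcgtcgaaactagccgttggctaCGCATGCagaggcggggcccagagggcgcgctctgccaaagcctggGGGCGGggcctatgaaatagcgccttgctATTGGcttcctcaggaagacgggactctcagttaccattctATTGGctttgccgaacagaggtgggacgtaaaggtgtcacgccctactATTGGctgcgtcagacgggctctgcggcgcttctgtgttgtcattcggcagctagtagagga

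The Mpc1 window held 1 GC box and 2 CCAAT matches, the Pdk1 window 2 GC boxes, and the Pdk4 window 1 CCAAT match. The Pdhb window held the NRF1 core, beginning 176 bases before the start, besides 1 hypoxia core, 2 GC boxes and 3 CCAAT matches. Of the 10 members, 7 had a GC box and 7 a CCAAT match, against 35.9% and 37.4% of all 32544 promoter windows. Any CACGTG counts as an ACGTG match on both strands. The hypoxia core was in 3 members (19.7% of all windows), the NRF1 core in 1 (3.60%), and neither AAGGTCA (4.71%) nor GTAAACA (3.66%) was in any. A match is a run of letters and no evidence of binding.

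Levels were compared between genes only per length, as normalized counts per kilobase of the principal GENCODE transcript. In the BRAFV600E and BRAFV600E/PI3KαH1047R table, Pdhb and Pdha1, which encode both chains of the E1 component, were the highest, with medians of 731 and 724 normalized counts per kilobase. Mpc2 (494), Dlat (413) and Mpc1 (347) followed, then Pdk2 (226), Pdhx (119), Pdk1 (95.1), Pdk4 (57.1) and Pcx (25.6). Several neighbours in this order did not separate. Pdhb lay above Pdha1 in 8 of 14 libraries, Mpc2 above Dlat in 10, Dlat above Mpc1 in 10, Pdhx above Pdk1 in 8 and Pdk1 above Pdk4 in 9. Mpc1 lay above Pdk2 in all 14.

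In the PGC1α table, Pdhb was again highest, with a median of 363 normalized counts per kilobase, above Pdha1 (229.8) in 9 of 9 libraries. Mpc1 (203) and Mpc2 (193) were close, with Mpc1 above in 5 of 9. By genotype, their medians were 210 and 193 in PGC1αHet and 147 and 205 in PGC1αNull. Pdk4 ranked 5th with a median of 159, ahead of Dlat (123) and Pdk2 (114), and lay above Dlat in 5 of 9 libraries. Its place above Dlat held in PGC1αHet, with medians of 166 and 133, but not in PGC1αNull. There Pdk4 had a median of 38.9, below Dlat (122), Pdk2 (111) and Pdhx (89.5). Dlat lay above Pdk2 in 4 of 9 libraries. Pdhx (80.9), Pdk1 (22.3) and Pcx (21.1) had the lowest medians over all 9 libraries, and Pdk1 lay above Pcx in 5 of them. Ranks can be compared across the tables, but the levels cannot, because each table was normalized separately.

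**Figure D1:**
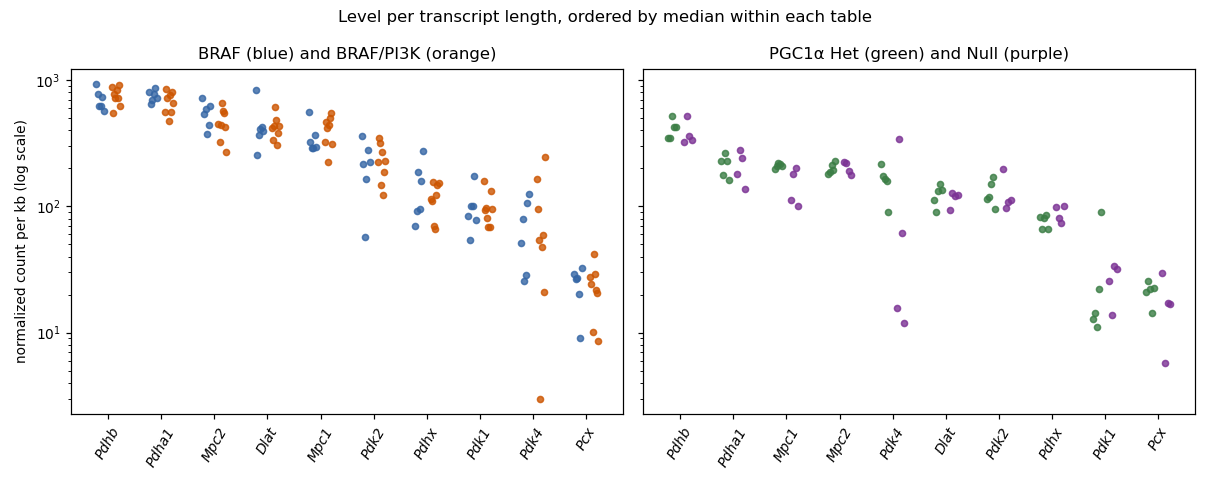
Level of each of the 10 genes in each library, as normalized counts per kilobase of the principal transcript on a log axis, ordered by the median within each table. Colours mark genotypes and each point is 1 library. The E1 genes Pdhb and Pdha1 lie highest on the left, Pcx lowest, and Pdk4 spreads widest in both panels.

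Part of the sequence of some members is shared with other gene models, which can shift reads between them in the estimates. Of the 31-base words in its transcripts, Mpc1 (chr17:8282904-8297661, GRCm38) shared 30.8%, mostly with 4930506C21Rik. Pdhb shared 17.9%, mostly with Gm6123, and Pdha1 shared 15.8%, mostly with Map3k15. The other 7 shared at most 4.38%.

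The carrier genes came first in the comparison of BRAFV600E/PI3KαH1047R with BRAFV600E, which asks what mutant PI3Kα adds to BRAFV600E. Mpc1 had 277, a median of 296 and 532 normalized counts as the lowest, middle and highest values of the 6 BRAFV600E libraries, and 215, 414 and 525 in the 8 BRAFV600E/PI3KαH1047R libraries. The groups overlapped over nearly their whole range. The log2 fold change with weeks pooled was 0.19 (SE 0.23, 95% confidence interval -0.30 to 0.67, limma adjusted p = 0.888). For Mpc2, its partner in the carrier, the BRAFV600E libraries gave 383, 575 and 733 as lowest, median and highest, and the others 274, 459 and 673. These groups overlapped too, and the log2 fold change was -0.26 (SE 0.22, -0.74 to 0.21, limma adjusted p = 0.834).

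At 6 weeks p.i. Mpc1 did not overlap between genotypes. The 3 BRAFV600E libraries had 355, 277 and 277 normalized counts and the 4 BRAFV600E/PI3KαH1047R libraries had 402, 426, 449 and 476. Every library with mutant PI3Kα was thus above every library without it, with a log2 fold change of 0.54 (SE 0.30, -0.11 to 1.18). The two-sided exact permutation test gave p = 0.0286, the smallest that 3 against 4 libraries can give, while limma's p was 0.0937 and its adjusted p 1.00. In that comparison 2 of the 10 members, Mpc1 and Pdk1, had groups without overlap, against 5.22% of the 17558 genes tested. Leaving out 1 library at a time moved the Mpc1 difference between 0.48 and 0.66. At 2 weeks p.i. the single BRAFV600E library had 285 and the others 215 and 301, and at 12 weeks p.i. the values were 308 and 532 against 310.0 and 525, so the genotypes overlapped at both times. Mpc2 at 6 weeks p.i. was 451, 383 and 601 in BRAFV600E against 454, 584, 332 and 563, with a log2 fold change of 0.01 (-0.74 to 0.75).

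The subunits of pyruvate dehydrogenase differed little between these genotypes. Pdha1, the catalytic E1 alpha chain encoded on the X chromosome, ran from 1856 through a median of 2132 to 2467 normalized counts in BRAFV600E and from 1359 through 1962 to 2413 in BRAFV600E/PI3KαH1047R. Its interval of the fold between genotypes was 0.702 to 1.11. Pdhb, the E1 beta chain, ran from 860.4 through 1033 to 1401 and from 832 through 1131 to 1389, with an interval of 0.836 to 1.34. With weeks pooled, both E1 genes overlapped between genotypes, and a change of either past 1.5 times in either direction lies outside these pooled intervals. The single-week intervals are wider, with a lower bound of the Pdha1 fold of 0.439 at 2 weeks p.i. and of 0.582 at 12 weeks, and an upper bound of the Pdhb fold of 2.00 at 2 weeks and of 1.63 at 12 weeks.

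Dlat encodes the E2 core that makes acetyl-CoA. Its lowest, median and highest values were 1021, 1615 and 3350.0 normalized counts in BRAFV600E and 1246, 1717 and 2479.8 in BRAFV600E/PI3KαH1047R. The groups overlapped, and the highest value, BRAFV600E replicate 2 at 12 weeks p.i., stood far above the other 5 of its group. The log2 fold change was 0.00 (SE 0.23, -0.48 to 0.48) and ranged from -0.14 to 0.20 when 1 library was left out. Pdhx, the E3-binding protein that docks the last enzyme of the complex, ran from 174 through 319 to 683 in BRAFV600E and from 166 through 298 to 391 in BRAFV600E/PI3KαH1047R. Its log2 fold change was -0.21 (SE 0.32, -0.88 to 0.46), and it was 0.00 without the single 2 week BRAFV600E library, which holds the value of 683.

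With weeks pooled, 0 of the 10 members passed in limma, at an adjusted p under 0.05 (0.0228% of all genes tested) or at an unadjusted p under 0.05 (6.83%). The exact permutation test over the 3003 ways to label the libraries gave p-values from 0.198 (Pdha1) to 0.996 (Dlat), unadjusted, and no member had groups without overlap (0.211% of all genes). The median log2 fold change of the members was -0.06, beside 0.02 over all genes tested. Exchanging labels only within weeks gave p-values from 0.216 (Pdhb) to 0.984 (Dlat). Leaving out both 12 week BRAFV600E/PI3KαH1047R libraries, or the 3 libraries with the lowest AT2 markers, also left 0 of the 10 members past either threshold.

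**Figure D2:**
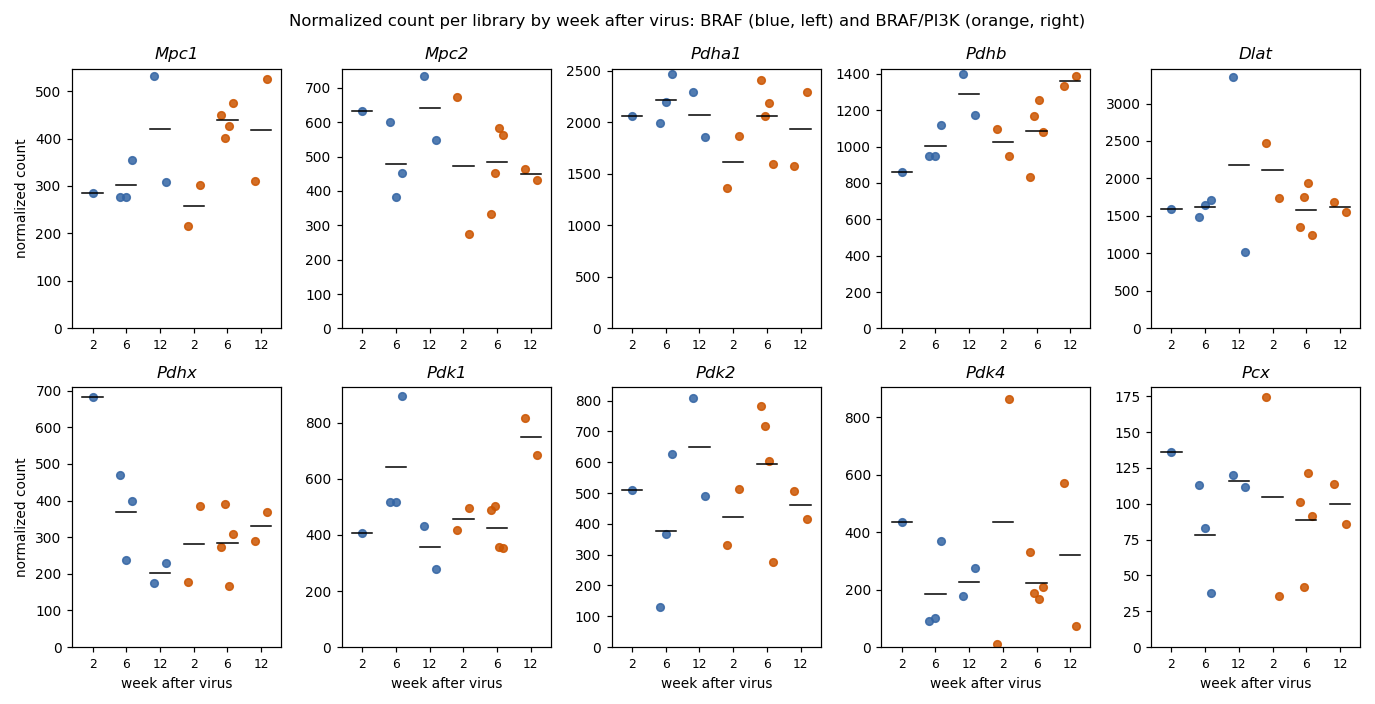
Normalized counts of each gene (vertical axis, from 0) in each of the 14 libraries by week p.i., with BRAFV600E in blue on the left and BRAFV600E/PI3KαH1047R in orange on the right of each panel. Points are libraries and lines are means. Mpc1 and Pdk1 separate at 6 weeks, Pdk1 again in the other direction at 12 weeks, and the other genes overlap at 6 weeks.

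Pdk1 was the 1 member with groups without overlap at both of 2 times, 6 and 12 weeks p.i., and the directions were opposite. At 6 weeks p.i. the BRAFV600E libraries had 896, 518 and 518 normalized counts and the BRAFV600E/PI3KαH1047R libraries 502, 358, 489 and 353. All 4 libraries with mutant PI3Kα were below all 3 without it, by a log2 fold change of -0.57 (SE 0.29, -1.20 to 0.07, exact permutation p = 0.0571, limma adjusted p = 1.00). With 1 library left out at a time this fold change ran from -0.70 to -0.30, the latter without the BRAFV600E library with 896. At 12 weeks p.i. BRAFV600E had 279 and 434, and BRAFV600E/PI3KαH1047R had 819 and 684. Here both libraries with mutant PI3Kα were above both without it, by 1.10 (SE 0.38, 0.27 to 1.94, limma p = 0.0140, adjusted p = 1.00), and 2 against 2 libraries cannot give an exact p under 0.333.

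The difference between these effects, 12 minus 6 weeks, was 1.67 (SE 0.48, 0.62 to 2.72, limma adjusted p = 1.00). It was past an unadjusted p of 0.05 for 1 of the 10 members, against 2.87% of all genes, and past the adjusted threshold for none of the members or other genes. Groups without overlap at both weeks in opposite directions were found for 103 genes, 0.587% of those tested. Leaving out 1 library moved the Pdk1 difference between 1.35 and 1.99, and both 12 week BRAFV600E/PI3KαH1047R libraries are those that went against their labelled sex. The library with 819 is replicate 1, the one with the macrophage sum of 17857; without it the difference at 12 weeks was 0.97 and its unadjusted p no longer under 0.05, and the part of these cells in the value was not tested. At 2 weeks p.i. Pdk1 was 408 in the BRAFV600E library and 419 and 497 in the others. Pooled over weeks, Pdk1 ran from 279 through 476 to 896 in BRAFV600E and from 353 through 493.3 to 819 in BRAFV600E/PI3KαH1047R, with a log2 fold change of 0.05 (-0.50 to 0.60).

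Over the other members at single weeks, 1 of 10 passed an unadjusted p of 0.05 at 2 weeks p.i. (13.5% of all genes), 0 at 6 weeks (4.24%) and 1 at 12 weeks, Pdk1 itself (3.76%). The adjusted threshold was passed by 0 members at each week, against 0.0171%, 0.0228% and 0.0114% of all genes. The member at 2 weeks was Pdhx, with 683 in the BRAFV600E library and 177 and 384 in the others, a log2 difference of -1.39 (-2.74 to -0.03, limma adjusted p = 0.359) that rests on 1 BRAFV600E library. With labelled sex as a factor the log2 difference of Pdhx was -1.58 (limma adjusted p = 0.373) and its unadjusted p no longer under 0.05. Labelled sex and genotype coincide at 2 weeks, so the sex term came from the 6 and 12 week libraries and cannot separate the 2 there. Without that factor, the Pdhx difference ran from -1.95 to -0.83 with 1 library left out at a time. The count of members at an unadjusted p under 0.05 differed from 1 in 8 of these 13 fits. At 12 weeks p.i. 3 members had groups without overlap, Mpc2 lower with mutant PI3Kα, Pdhx and Pdk1 higher, against 29.2% of all genes. For the 6 minus 2 week difference, 0 of 10 members passed an unadjusted p of 0.05 (8.95% of all genes).

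Pdk2, the kinase with the highest level per length in this table, ran from 129 through 499 to 809 normalized counts in BRAFV600E and from 278 through 509.8 to 781 in BRAFV600E/PI3KαH1047R. The groups overlapped, and the log2 fold change was 0.20 (SE 0.36, -0.56 to 0.97). Its lowest value, 129 in BRAFV600E replicate 3 at 6 weeks p.i., turned the sign: without that library the value was -0.14. Pcx, which feeds oxaloacetate into the cycle, was low throughout, from 37.6 through 112 to 136 in BRAFV600E and from 35.5 through 96.2 to 174 in BRAFV600E/PI3KαH1047R. Its log2 fold change was -0.12 (SE 0.39, -0.94 to 0.70).

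Pdk4 spread more than any other member in both tables. The BRAFV600E libraries had 437 at 2 weeks p.i., 368, 99.9 and 89.1 at 6 weeks, and 276 and 179 at 12 weeks. The BRAFV600E/PI3KαH1047R libraries had 10.5 and 863 at 2 weeks, 189, 166, 331 and 209 at 6 weeks, and 571 and 72.8 at 12 weeks. The lowest and the highest value of the whole table were thus the replicates of a single group, the 2 week BRAFV600E/PI3KαH1047R libraries, and the genotypes overlapped completely. The log2 fold change was -0.22 (SE 0.77), and its interval, -1.86 to 1.42, spans folds from 0.276 to 2.68.

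Within a genotype, the SD of Pdk4 between libraries was 1.60 on the log2 scale in the BRAFV600E and BRAFV600E/PI3KαH1047R table, larger than that of 88.7% of the genes tested, and 1.49 in the PGC1α table, larger than that of 93.5%. The E1 genes were near the other end. Pdha1 had an SD of 0.25 and Pdhb also 0.25 in the first table, where 3.22% and 3.62% of genes had a smaller one and the median gene had 0.64. In the PGC1α table Mpc2 had an SD of 0.15, with 0.465% of genes smaller, and Pdhx 0.20, with 2.03% smaller. SDs on this scale depend on the level of a gene, and the ranks were not adjusted for it.

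**Figure D3:**
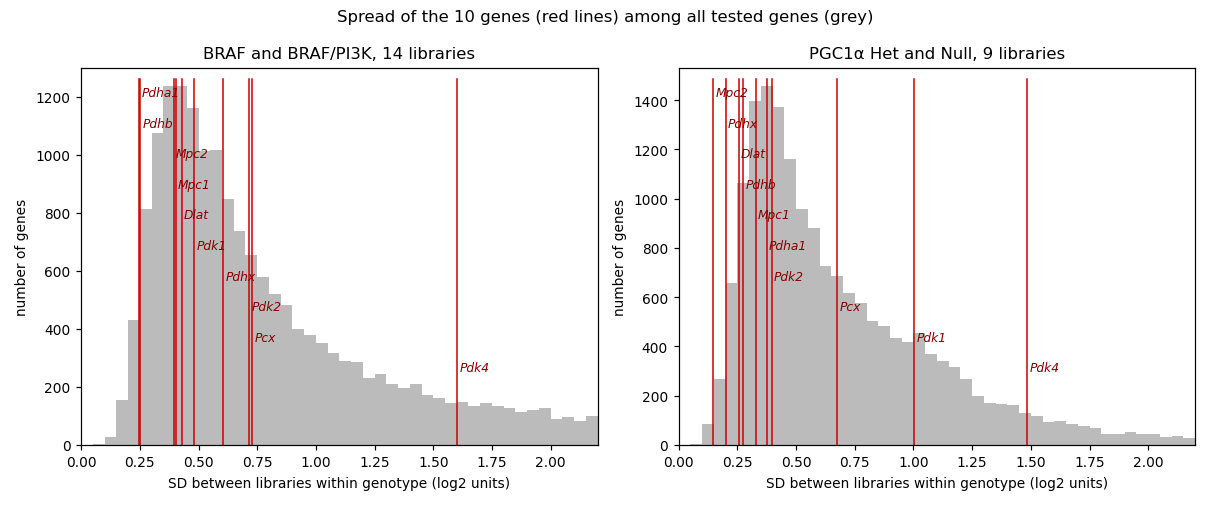
Number of genes by SD between libraries within a genotype on the log2 scale (grey bars), in the table of BRAFV600E with and without mutant PI3Kα (left) and the PGC1α table (right). Red lines are the 10 genes; genes with an SD above the axis end are not drawn. Pdk4 lies at 1.60 and 1.49, far right of Pdha1 and Pdhb on the left and of Mpc2 on the right.

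By Pearson correlation of log2 values over the 14 libraries, the genes most like Pdk4 among 14206 with a mean of at least 40 were Noc2l (r = 0.84), Mta1 (r = 0.83) and Zbtb17 (r = 0.83). Over the 9 libraries of the PGC1α table they were Osgin1 (r = 0.98), Nuak2 (r = 0.98) and Arfgap1 (r = 0.97), among 12726 genes. The lists share no gene, and correlations of this size are the highest of all genes searched.

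Across weeks, with genotype in the fit, no member passed. At an unadjusted p under 0.05, 0 of 10 members passed for 6 against 2 weeks p.i. (11.9% of all genes) and 0 for 12 against 6 weeks (5.31%), and at an adjusted p the counts were 0 of 10 against 0.0513% and 0% of all genes. Mpc1 came nearest for 6 against 2 weeks, with 215 to 301 normalized counts over the 3 libraries of 2 weeks and 277 to 476 over the 7 of 6 weeks. These ranges overlapped, and the log2 fold change was 0.52 (SE 0.27, -0.06 to 1.09, limma adjusted p = 0.482). Pdhb came nearest for 12 against 6 weeks, with 832 to 1256 at 6 weeks and 1173 to 1401 over the 4 libraries of 12 weeks. Its log2 fold change was 0.35 (SE 0.17, 0.00 to 0.71, limma adjusted p = 0.901).

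The PGC1α table asks what loss of the second copy of Ppargc1a does in BRAFV600E tumors, since PGC1α is a known coactivator of mitochondrial genes, Pdk4 among its known targets. Ppargc1a itself had 75.8, 170.2, 155, 199.5 and 561 normalized counts in PGC1αHet and 72.7, 38.0, 51.6 and 124 in PGC1αNull. The groups overlapped, and the log2 fold change was -1.51 (SE 0.50, -2.60 to -0.42, limma adjusted p = 0.978). A value for the whole gene includes reads from exons outside the floxed part, so it does not check the deletion.

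Pdk4 was the 1 member of 10 at an unadjusted p under 0.05 in PGC1αNull against PGC1αHet, where 3.83% of all 17424 genes were, and 0 members passed the adjusted threshold, as for 0% of all genes. The PGC1αHet libraries had 759, 601, 579, 554 and 315 normalized counts and the PGC1αNull libraries 55.0, 1196, 216 and 41.5. In PGC1αNull, 3 libraries lay below every PGC1αHet library and 1, replicate 2, above them all. The log2 fold change was -1.78 (SE 0.76, -3.41 to -0.15, limma p = 0.0350, adjusted p = 0.998, exact permutation p = 0.135). Leaving out 1 library gave -2.75, without PGC1αNull replicate 2, to -1.15, without replicate 4. The count of members at an unadjusted p under 0.05 differed from 1 in 7 of these 9 fits, from 0 to 2. The lowest values were in replicates 1 and 4, in which Gm10800 took 14.4% and 12.96% of the summed values. Without the 3 libraries in which Gm10800 took over 10%, a choice made after seeing the data, the log2 fold change of Pdk4 was 0.03. In that fit 0 of 10 members passed an unadjusted p of 0.05. Of PGC1αNull it kept only replicates 2 and 3, with 1196 and 216 normalized counts, and left out the lowest values, 55.0 and 41.5. The value of 0.03 therefore depends on replicate 2, and the part of Gm10800 in the Pdk4 difference was not tested.

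Mpc1 showed the same libraries low. It had 189, 201, 209.8, 206 and 199.6 normalized counts in PGC1αHet, a narrow group, and 108, 173, 195 and 95.7 in PGC1αNull. Replicates 1 and 4 were lowest, replicate 2 was also below every PGC1αHet library, and replicate 3 lay within their range. The log2 fold change was -0.55 (SE 0.26, -1.12 to 0.02, limma p = 0.0564, adjusted p = 0.998), and the two-sided exact permutation test gave p = 0.0159, unadjusted, where 0.00794 is the smallest possible. Without the 3 libraries rich in Gm10800 it was -0.15, but that fit left out replicates 1 and 4, the lowest of PGC1αNull. Mpc2 had 186, 190.3, 218, 198 and 233 against 229, 224, 197 and 180.0, overlapping throughout, with an interval of the fold from 0.735 to 1.39.

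The other members of the complex did not separate PGC1αHet from PGC1αNull. Pdha1 had 654, 501, 759, 657 and 464 normalized counts against 514, 801, 692 and 391, and the interval of the fold was 0.663 to 1.41. Pdhb had 526.4, 526.1, 782, 647 and 647 against 488, 783, 549 and 503, with an interval of 0.665 to 1.28. For Dlat the values were 449.9, 363, 536, 606 and 546 against 380.2, 511, 489 and 497, with an interval of 0.686 to 1.31. In all 3 genes the PGC1αNull values lay within or across the PGC1αHet range. Pdhx had 206, 166, 203, 213 and 165 against 247, 201, 184 and 252, with its highest values in PGC1αNull replicates 1 and 4 and a log2 fold change of 0.21 (SE 0.22, -0.27 to 0.69).

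Pdk1 was 57.1 to 116 in 4 PGC1αHet libraries and 466.4 in replicate 5, against 134, 71.4, 175 and 164 in PGC1αNull. PGC1αHet replicate 5 was also the highest of the table in Ppargc1a, with 561. The log2 fold change of Pdk1 was 0.24 (SE 0.55, -0.93 to 1.42) and 0.77 without that library. Pdk2 had 256, 265, 338, 384 and 214 against 447, 217, 244 and 253, with the highest in PGC1αNull replicate 1, and a log2 fold change of -0.04 (SE 0.27, -0.62 to 0.55). Pcx had 87.3, 106, 91.6, 59.5 and 94.4 against 123, 24.1, 71.9 and 70.0, which overlapped, and -0.46 (SE 0.42, -1.37 to 0.45). The Pcx value moved with single libraries, between -0.78, without PGC1αNull replicate 1, and -0.015, without replicate 2, and it was -1.02 without the 3 libraries rich in Gm10800. The median log2 fold change of the 10 members was -0.06, beside 0.01 over all genes, and no member had groups without overlap (1.4% of all genes).

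**Figure D4:**
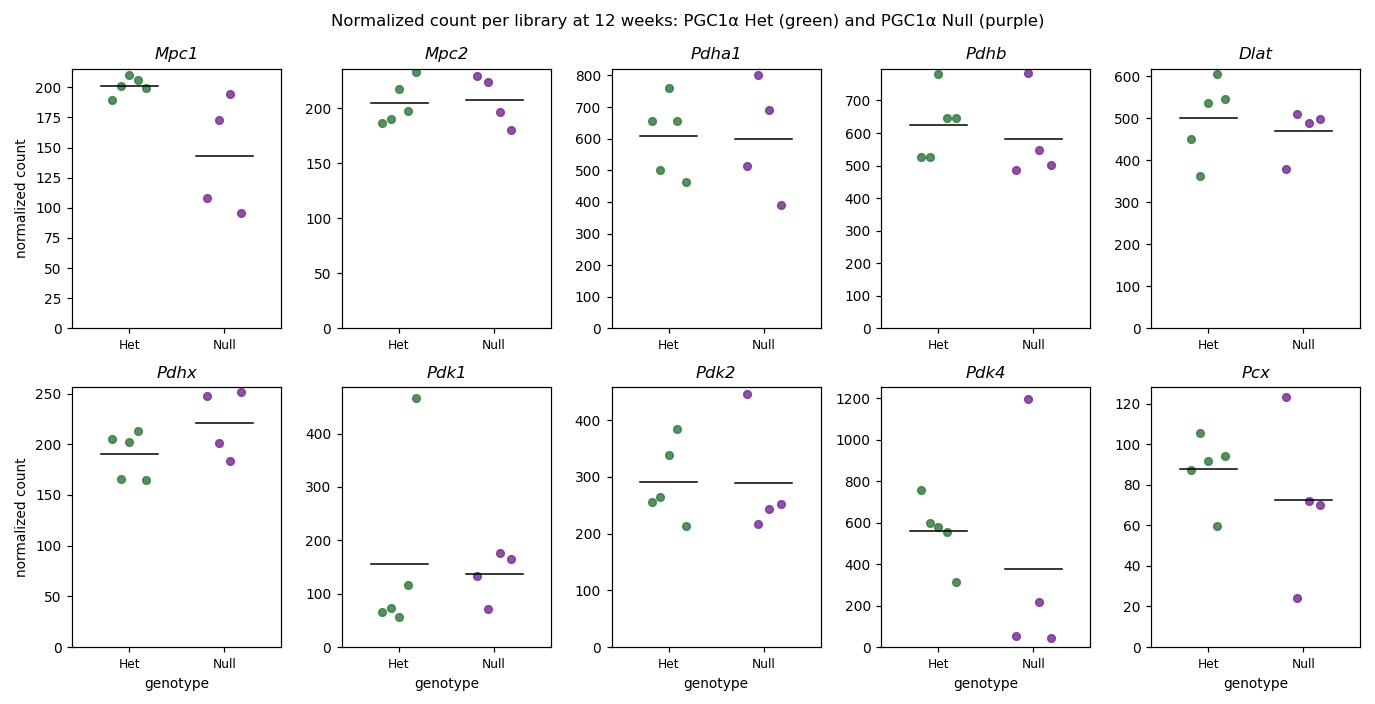
Normalized counts of each gene (vertical axis, from 0) in the 5 PGC1αHet (green) and 4 PGC1αNull (purple) libraries at 12 weeks p.i. Points are libraries and lines are means. Pdk4 and Mpc1 have low values in PGC1αNull replicates 1 and 4, while 1 PGC1αNull library has the highest Pdk4, 1196.

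**Figure D5:**
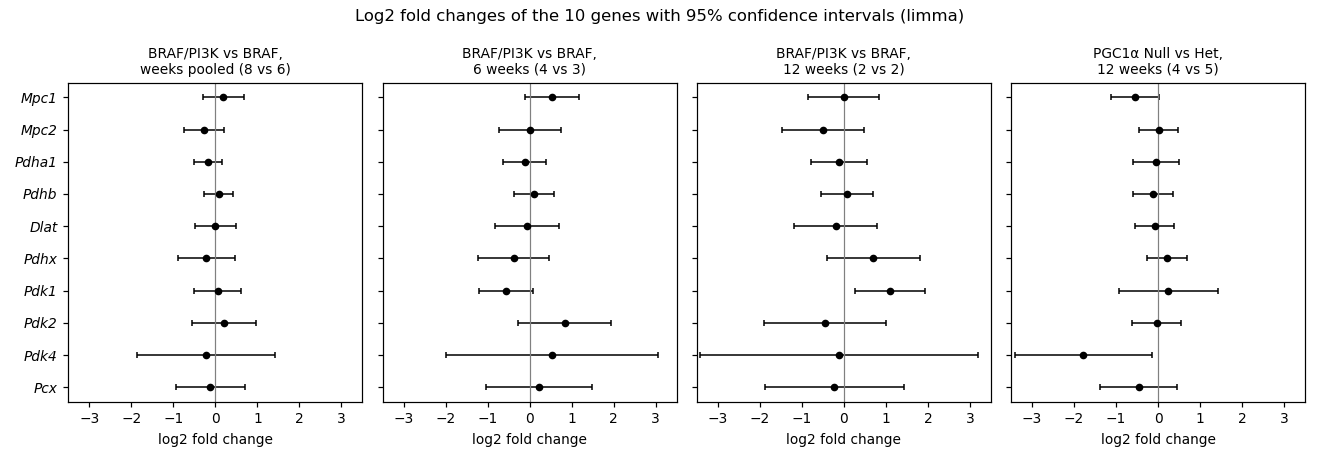
Log2 fold changes of the 10 genes with 95% confidence intervals from limma in 4 comparisons, the number of libraries in each panel's title. The intervals of Pdk1 at 12 weeks and of Pdk4 in PGC1αNull leave out 0 before adjustment; Pdha1 and Pdhb have the narrowest intervals in the pooled comparison.

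Paired members were also compared within a library, as differences of log2(normalized count + 1), on which the scaling between libraries bears less, except for low genes. Across 12 tests, 6 pairs in each table, the log2 ratio of Mpc1 to Mpc2 in the PGC1α table had the smallest p. It averaged -0.02 ± 0.12 (SD, n = 5) in PGC1αHet and -0.59 ± 0.49 (SD, n = 4) in PGC1αNull, with an exact permutation p of 0.0238 that became 0.286 after adjustment over the 12 tests. Without the 3 libraries rich in Gm10800, including the PGC1αNull libraries lowest in Mpc1, the difference of this ratio was -0.16, against -0.57 with all 9. In the other table it averaged -0.73 ± 0.35 (SD, n = 6) in BRAFV600E and -0.28 ± 0.65 (SD, n = 8) in BRAFV600E/PI3KαH1047R, with an exact permutation p of 0.156. The log2 ratio of Pdha1 to Pdhb held within 0.24 to 1.53 over all 14 libraries, whereas that of Pdk4 to Pdk1 ran from -5.19 to 0.79. In the PGC1α table the latter ran from -1.96 to 4.05, with both ends in PGC1αNull. No ratio passed 0.05 after adjustment, with 0 of 12.

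Ppargc1a, which had 349.5 to 1088 normalized counts in BRAFV600E and 51.9 to 415 in BRAFV600E/PI3KαH1047R (log2 fold change -1.92, limma adjusted p = 0.225), was set against Mpc1 and Pdk4 over the 14 libraries. For Mpc1, Pearson's r was 0.01 (permutation p = 0.980, 0.980 adjusted over the 2 relations) and Spearman's rho -0.09 (permutation p = 0.750). For Pdk4, r was -0.21 (permutation p = 0.479, adjusted 0.959) and rho -0.25 (permutation p = 0.392). Within genotypes Mpc1 went opposite ways, with r = -0.55 over 6 BRAFV600E libraries (exact permutation p = 0.261) and r = 0.62 over 8 BRAFV600E/PI3KαH1047R libraries (exact permutation p = 0.0989), where rho was 0.83 (exact permutation p = 0.0154). These 2 slopes were not tested against each other. Without the 2 libraries farthest from the median of Ppargc1a, r was -0.24 for Mpc1 and 0.30 for Pdk4, so Pearson's r turned its sign for both, from 0.01 for Mpc1, while Spearman's rho was -0.22 for Mpc1 and 0.20 for Pdk4.

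Further genes around pyruvate were read in the same fits. Of 24 further pyruvate genes, 23 were in the first table and tested, and 0 passed the adjusted threshold, with 2 higher and 1 lower at an unadjusted p under 0.05 (6.83% of all genes). Ldhb, the lactate dehydrogenase chain that favours pyruvate formation, averaged 433 ± 78.7 normalized counts (SD, n = 6) in BRAFV600E and 262 ± 151 (SD, n = 8) in BRAFV600E/PI3KαH1047R, a log2 difference of -0.90 (limma adjusted p = 0.627). Lias, which makes the lipoyl group that E2 needs, averaged 239.96 ± 69.8 (SD, n = 6) against 399 ± 115 (SD, n = 8), with 0.74 (limma adjusted p = 0.511). Pkm, the pyruvate kinase, had 0.41 (limma adjusted p = 0.726), and Lipt1, a lipoyl transferase of low level, the largest value, -1.39 (limma adjusted p = 0.732). In PGC1αNull against PGC1αHet, 22 were tested and 0 passed either threshold, and the largest values were 0.72 for Pck1 and 0.68 for Pdp2, a phosphatase that reactivates E1.

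Among 11 regulators, only Ppargc1a was at an unadjusted p under 0.05 with weeks pooled (6.83% of all genes) and in the PGC1α table (3.83%), and Ppargc1b had the next largest values, -0.89 and 0.52. Of 10 genes known to be induced by PPAR, FOXO or glucocorticoid receptors, like Pdk4, Angptl4 had a log2 difference of 1.04 with mutant PI3Kα (limma adjusted p = 0.653) and Irs2 one of -0.80 (limma adjusted p = 0.500). With weeks pooled 8 of these 10 genes were higher in value and 2 lower. At 2 weeks p.i. 9 were higher, with a median log2 difference of 1.04 and 3 of the 10, Angptl4, Cpt1a and Plin2, at an unadjusted p under 0.05 (13.5% of all genes), and at 12 weeks 7 were lower, with a median of -0.24. The 2 week values compare 1 BRAFV600E library with 2 others whose AT2 marker sums were lower (159214 and 77013 against 792011) and whose endothelial (62866 and 63470 against 7308) and fibroblast sums (35333 and 48273 against 12348) were higher, and the part of these in the list's values was not tested. For the difference of these effects between weeks, 6 minus 2 weeks gave 1 gene higher and 9 lower, with a median of -0.74. The difference of 12 minus 6 weeks also gave 1 higher and 9 lower, with a median of -0.43. That of 12 minus 2 weeks was not tested. In PGC1αNull against PGC1αHet, 0 of the 10 were at an unadjusted p under 0.05, and Tsc22d3 had a value of 0.60 (-0.06 to 1.27). The median log2 fold change of these 10 genes was 0.31 with mutant PI3Kα and -0.08 in PGC1αNull, beside 0.02 and 0.01 over all genes.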

How the data were processed

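Libraries of sorted tdTomato-positive cells came from an ultralow-input Nugen kit and were read from a single end. The signal values deposited by the authors are gene estimates made with Salmon and normalized by DESeq2, separately for each table; the submitters' notes name GRCm38, FastQC, Salmon and DESeq2 without versions. The authors' comparison tables (fold changes, Wald statistics, p-values) were not used. Low values are not whole multiples of a step (at most 12.1% within 0.001 of one), so depth in reads is unknown and no count test was run. Summed values were 16433820 to 20287296 per library in the first table and 7115753 to 9159567 in the second, which are not depths.

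Values were compared as log2(normalized count + 1), which understates changes of low genes, with limma 3.58.1 in R 4.3.3 (trend, moderated variance, two-sided), for the 17558 and 17424 genes with a mean of at least 10, with Benjamini-Hochberg adjustment over all genes tested. Pooled fits held genotype alone, as the study's did; the single-week fits gave every combination of genotype and week its own mean. Exact permutation tests, ratios and correlations used Python 3.11.15 with numpy 2.4.6, pandas 2.3.3 and scipy 1.17.1, and 100000 permutations for 14 or 12 libraries; figures used matplotlib 3.10.9. Fits were tested on simulated data. The members, lists and rules were chosen with earlier results of these data known. Named genes are all members, the targeted gene Ppargc1a, in each further list those with an adjusted p under 0.05 plus the 2 largest log2 fold changes in each genotype comparison, and the 3 genes most like the most variable member (1 gene that the rule names is not reported here); Lias, Pkm, Gm10800 and Ddx3y, the single-week genes, Cpt1a, Plin2 and the promoter set were named after their values were seen. The second targeted gene, Pik3ca, keeps both alleles in 1 value and checks nothing. Alternatives were a pseudocount of 4, a mean over 40, any count, quantile normalization, labelled sex, week or replicate number in the fit, and leaving out libraries.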

Additional observations from a re-analysis of the deposited data

Results flagged for a closer look

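In groups of 4 to 8 libraries, 6 values of members stood so far from the next one that they passed Dixon's test, in 50 groups examined. The test was made on normalized counts, not on the log2 scale of the other comparisons, on which it was not run. Chance flags about 1 in 20 only if values are normally distributed. That was not tested, so the 6 flags in 50 groups cannot be set against this share. BRAFV600E replicate 2 at 12 weeks p.i. was the highest of its genotype in Mpc1, with 532 normalized counts, and in Dlat, with 3350.0. PGC1αNull replicate 1 was the lowest of its group in Dlat, with 380.2, and the highest in Pdk2, with 447. PGC1αHet replicate 5 was the highest of its group in Pdk1, with 466.4, and PGC1αNull replicate 2 the highest in Pdk4, with 1196. The Pdk1 difference between genotypes at 12 minus 6 weeks p.i. was 1.67 on the log2 scale, since all BRAFV600E/PI3KαH1047R libraries were below BRAFV600E at 6 weeks and above at 12 weeks; limma's adjusted p for the difference was 1.00.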

How the results depend on the processing

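In all, 1104 recomputed values were set beside those reported, of which 1006 kept their direction and their side of the threshold, 54 turned their sign, and the rest moved or crossed a threshold. No setting brought a member past an adjusted p of 0.05 in limma. Depth in reads is unknown, so counting error cannot be set beside the spread between libraries, and groups of 1 or 2 libraries borrow their spread from the other groups. The cause of each shift below was not tested.

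The number of members at an unadjusted p under 0.05 went at 2 weeks p.i. from 1 to 0 with labelled sex as a factor, where the log2 difference of that member, Pdhx, was -1.58 against -1.39. For 12 against 6 weeks it went from 0 to 1 with any count kept and to 1 with quantile normalization. In PGC1αNull against PGC1αHet it went from 1 to 2 with quantile normalization and to 0 without the 3 libraries rich in Gm10800. Leaving out 1 library at a time gave 0 to 2 at 2 weeks, 0 to 1 at 6 weeks, 0 to 1 at 12 weeks, 1 to 2 for 12 minus 6 weeks, 0 to 1 for 6 minus 2 weeks, 0 to 1 for each comparison of weeks, and 0 to 2 for PGC1αNull. Without BRAFV600E/PI3KαH1047R replicate 1 the count at 12 weeks, Pdk1, was 0. Without BRAFV600E replicate 1 or BRAFV600E/PI3KαH1047R replicate 4 of 6 weeks, the count at 6 weeks was 1. Without BRAFV600E/PI3KαH1047R replicate 2 of 2 weeks it was 2 at 2 weeks, and without PGC1αNull replicate 2 it was 2 for PGC1αNull.

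Deviations of same-numbered libraries correlated from -0.47 to 0.21 in the PGC1α table, from -0.28 to -0.01 at 6 weeks p.i. and at -0.15 at 12 weeks. At 12 weeks, with 2 libraries in each group, different-numbered libraries gave 0.15, the same size with the other sign. In groups this small such values cannot decide whether the replicate numbers pair the libraries. With the replicate number as a block, the count of members at an unadjusted p under 0.05 was 0 at 2 weeks and 1 at 6 weeks.

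With weeks pooled, the log2 fold change of Pdhb was -0.0083 and that of Pdk1 -0.15 without both 12 week BRAFV600E/PI3KαH1047R libraries. Dlat, at 0.00, was -0.024 with quantile normalization, -0.010 with week as a factor and -0.0100 with labels exchanged only within weeks. Without the 3 libraries lowest in AT2 markers, Dlat was -0.13, Pdk4 0.090 and Pcx 0.13. Leaving out 1 library, the ranges were -0.14 to 0.20 for Dlat, -0.10 to 0.23 for Pdk1, -0.14 to 0.39 for Pdk2, -0.54 to 0.35 for Pdk4 and -0.38 to 0.058 for Pcx.

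In PGC1αNull against PGC1αHet, Pdk2 was 0.0085 with quantile normalization. Without the 3 libraries rich in Gm10800, Pdha1 was 0.35, Pdhb 0.026, Pdk1 -0.13 and Pdk4 0.035, and the log2 ratio differed by -0.16 for Mpc1 to Mpc2, 0.17 for Pdk4 to Pdk1 and 0.38 for Pdk4 to Pdk2. Leaving out 1 library, Mpc2 ran from -0.035 to 0.080, Pdha1 from -0.20 to 0.14, Dlat from -0.19 to 0.020 and Pdk2 from -0.26 to 0.082. The ratio differences ran from -0.76 to -0.41 for Mpc1 to Mpc2, -0.036 to 0.20 for Pdha1 to Pdhb, -2.84 to -1.02 for Pdk4 to Pdk2 and -0.74 to 0.26 for Pcx to Pdhb. In the other table they ran from 0.35 to 0.64 for Mpc1 to Mpc2, -0.38 to -0.19 for Pdha1 to Pdhb, -0.014 to 0.59 for Dlat to Pdhx, -0.60 to 0.26 for Pdk4 to Pdk1 and -0.74 to 0.064 for Pdk4 to Pdk2.

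Pearson's r with Ppargc1a over the 14 libraries was -0.55 for Mpc1 and 0.0042 for Pdk4 within BRAFV600E, and -0.24 and 0.30 without the 2 libraries farthest from the median of Ppargc1a.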
